A study of Homo sapiens with 6 samples.

Results

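The mRNAs of 10 genes that set the cell's response to oxygen were followed through the knockdown of INO80, the ATPase of the INO80 chromatin remodelling complex, in HK-2 cells, an immortalized line of human kidney proximal tubular epithelial cells. They are the oxygen-regulated alpha subunits HIF1A and EPAS1 (HIF-2alpha), their partners ARNT (HIF-1beta) and ARNT2, the oxygen-sensing hydroxylases EGLN1, EGLN2, EGLN3 and HIF1AN, the ubiquitin ligase subunit VHL and the inhibitor CITED2. They were taken by gene symbol, 1 entry each, so that 10 of the 57905 genes in the table were followed, and all 10 were among the 15343 genes with enough counts to test. The groups were 3 libraries of cells given a non-targeting siRNA pool (control siRNA) and 3 of cells given a pool of siRNAs against INO80 (INO80 siRNA), each harvested 48 h after lipid transfection. All 6 came from the 1 cell line in ordinary culture, and no hypoxia is named for them in the sources used here.

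HIF is a dimer of an alpha and a beta subunit. When oxygen is present, the EGLN enzymes hydroxylate prolines of the alpha subunit, VHL recognises the hydroxylated form, and the alpha subunit is destroyed, while HIF1AN (factor inhibiting HIF) hydroxylates an asparagine and so blocks the binding of the coactivators EP300 and CREBBP. When oxygen is short the alpha subunit persists, pairs with ARNT and binds the hypoxia response element, whose core is ACGTG or GCGTG. In the kidney HIF-1alpha is best known from tubular epithelial cells, whereas HIF-2alpha is best known from interstitial and endothelial cells. The mRNAs of both were present in this epithelial line, as given below. Much of this control acts on protein, which was not measured here, so the values below describe mRNA only.

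Some members are themselves induced by HIF and so close a feedback loop. The promoter windows of 3 such members are shown because the list holds both the sensors and their targets. Each runs from 250 bases before to 50 bases after an annotated start in RefSeq (GRCh38.p14), all 3 on the minus strand, and capitals mark the core or its reverse complement (CACGT or CACGC).
CITED2, chr6:139374599-139374898: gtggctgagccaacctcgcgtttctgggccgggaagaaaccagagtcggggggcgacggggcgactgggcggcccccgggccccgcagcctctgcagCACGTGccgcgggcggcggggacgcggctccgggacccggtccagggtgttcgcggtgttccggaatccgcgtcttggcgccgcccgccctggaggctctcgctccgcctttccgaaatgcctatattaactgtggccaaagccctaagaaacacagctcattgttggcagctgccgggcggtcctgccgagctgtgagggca
EGLN1, chr1:231422238-231422537: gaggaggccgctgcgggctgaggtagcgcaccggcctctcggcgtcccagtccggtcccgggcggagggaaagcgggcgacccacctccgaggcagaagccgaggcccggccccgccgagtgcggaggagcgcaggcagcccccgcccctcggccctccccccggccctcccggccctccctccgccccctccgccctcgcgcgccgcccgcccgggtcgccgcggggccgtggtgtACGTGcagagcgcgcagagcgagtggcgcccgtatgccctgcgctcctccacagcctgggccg
EGLN3, chr14:33951025-33951324: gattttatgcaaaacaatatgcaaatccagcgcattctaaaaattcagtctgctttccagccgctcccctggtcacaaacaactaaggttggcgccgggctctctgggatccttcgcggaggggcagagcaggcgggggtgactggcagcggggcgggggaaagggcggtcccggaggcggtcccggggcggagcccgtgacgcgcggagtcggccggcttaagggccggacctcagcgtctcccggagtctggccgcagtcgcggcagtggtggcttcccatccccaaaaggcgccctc

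The EGLN1 window held ACGTG 13 bases before the start, and this CITED2 window held the palindrome CACGTG, which carries the core on both strands. The EGLN3 window held no match. RefSeq windows were found for 8 of the 10 members, and 7 of their 12 windows (58.3%) held a core, against 48.4% of all 35116 windows of this length. These windows are not independent: several are of CITED2, and those starting at 139374164 and 139374313 overlap and share a GCGTG. The others were of EGLN1, EGLN2, EPAS1 and HIF1A. For the list of 30 HIF target genes described at the end, windows were found for 26 genes, and 35 of 38 windows (92.1%) held one. A match describes letters, not a site in use.

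The libraries held 16829273 to 20311588 counts with control siRNA and 20678008 to 23784599 with INO80 siRNA. Levels are given in CPM, counts scaled to a common library size with edgeR's trimmed mean of M-values. INO80 itself stood at 46.3, 49.3 and 54.0 CPM with control siRNA and at 13.8, 12.0 and 14.2 CPM with INO80 siRNA, a log2 fold change of -1.90 (SE 0.0956, adjusted p = 0.000161, edgeR). Of the proximal tubule markers, LRP2 (0 to 1 counts), CUBN (1 to 4), AQP1 (0 to 5), ANPEP (0 to 7) and SLC34A1 (3 to 22) were near 0, whereas GGT1 was present. Of the lineage and epithelial markers, PAX8, EPCAM and the keratins KRT8, KRT18 and KRT19 were expressed, whereas PAX2 (0 to 12 counts) and CDH1 (0 to 10) were near 0. Endothelial CDH5 and VWF had at most 2 counts. In such bulk RNA, fewer cells of a type and less RNA per cell cannot be told apart.

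Compared per length, the members differed widely in level. HIF1A was the most abundant, with a mean over the 6 libraries of 184 FPKM (fragments scaled by the gene's exonic length and by library depth), followed by CITED2 at 124, EPAS1 at 56.9, EGLN1 at 18.6, VHL at 12.6, HIF1AN at 8.39, ARNT at 5.60, EGLN2 at 4.48, EGLN3 at 1.77 and ARNT2 at 0.17 FPKM. The ranges of neighbours in this order did not overlap. HIF1A and EPAS1 together were 42.8 ± 3.04 (SD, n = 3) times as abundant as ARNT and ARNT2 together with control siRNA and 40.6 ± 2.97 times with INO80 siRNA. Among the prolyl hydroxylases, EGLN1 made up 75.3% ± 0.920 and 74.4% ± 0.716 (SD, n = 3 each) of the summed FPKM.

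**Figure D1:**
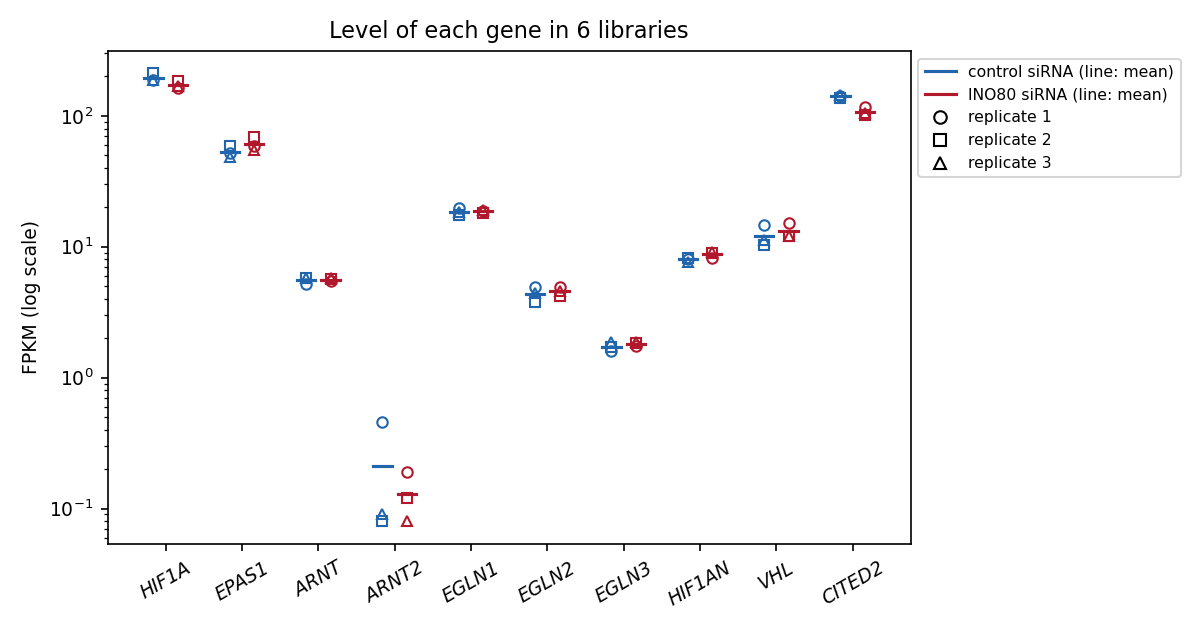
Level of the 10 members in each library, in FPKM on a log axis, for the control siRNA and INO80 siRNA libraries (3 each). HIF1A lies highest at a mean of 184 FPKM and ARNT2 lowest at 0.17 FPKM, and the groups lie close together for every member beside this spread between genes.

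CITED2 (ENSG00000164442, chr6:139693393-139695757, GRCh37), which competes with HIF for the coactivators EP300 and CREBBP, was the member called lower in the comparison of the groups. It had 303, 284 and 299 CPM with control siRNA and 250, 207 and 213 CPM with INO80 siRNA. All 3 INO80 siRNA libraries lay below all 3 control libraries. The group means were 295 ± 9.95 and 224 ± 23.0 CPM (SD, n = 3 each), 0.757-fold, with a log2 fold change of -0.40 (SE 0.0782, adjusted p = 0.0471, edgeR). No other member passed, so 1 of 10 was called, against 1.75% of all genes tested. The call was close to its threshold: with 1 library left out at a time it held in 1 of 6 fits, that without INO80 siRNA replicate 1, and the adjusted p ran from 0.0174 to 0.203.

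Libraries with the same replicate number varied together, and a fit that took the number as a block compared each INO80 siRNA library with the control library of its number. With this block 4 of the 10 members passed. EPAS1 and HIF1AN were higher, beside 11.4% of all genes called higher, and HIF1A and CITED2 were lower, beside 13.4% called lower. CITED2 kept its value, -0.41 (SE 0.0385, adjusted p = 1.30e-08), and was lower in 3 of 3 pairs, by 0.28 to 0.48 in size on the log2 scale. No member changed by a log2 value of 1 or more in either fit. The calls of HIF1A, EPAS1 and CITED2 held in 3 of 3 fits that each left out a pair. Those fits have few residual degrees of freedom and lean on variance shared between genes, so they are a weak check. The calls did not hold in limma on log2(FPKM + 0.1) with the same block, where their adjusted p were 0.126, 0.118 and 0.0859.

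**Figure D2:**
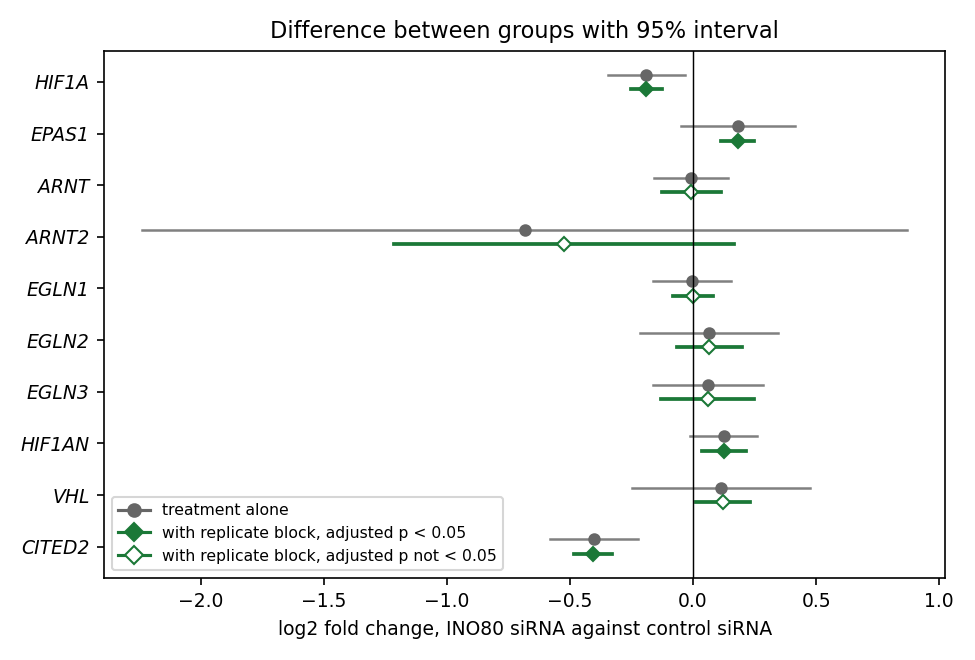
Log2 fold change of each member, INO80 siRNA over control siRNA, from edgeR without and with the replicate number as a block, with 95% confidence intervals. The intervals of CITED2 (-0.40) and HIF1A (-0.19) exclude 0 in both fits, while those of EPAS1 (0.18), HIF1AN and VHL exclude 0 only with the block, and VHL did not pass after adjustment.

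The alpha subunits differed in opposite directions in both fits, and passed only with the block. HIF1A (ENSG00000100644, chr14:62162231-62214976, GRCh37) had 991, 1085 and 955 CPM with control siRNA and 866, 939 and 851 CPM with INO80 siRNA, and the groups did not overlap. Its log2 fold change was -0.19 (SE 0.0687, adjusted p = 0.216 without the block, adjusted p = 4.06e-05 with it, edgeR), and the 3 pairs gave -0.19, -0.21 and -0.17. EPAS1 (ENSG00000116016, chr2:46520806-46613836) had 390, 429 and 349 CPM with control siRNA and 439, 494 and 392 CPM with INO80 siRNA. Its groups overlapped, since replicate 3 was lowest and replicate 2 highest in both, yet the pairs gave 0.17, 0.20 and 0.17. Its log2 fold change was 0.18 (SE 0.101, adjusted p = 0.426 without the block, adjusted p = 0.000148 with it).

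HIF1A therefore made up 78.2%, 78.2% and 79.5% of the FPKM of both alpha subunits with control siRNA and 73.6%, 72.9% and 75.5% with INO80 siRNA. The log2 ratio of HIF1A to EPAS1 was 1.88 ± 0.0642 and 1.51 ± 0.0991 (SD, n = 3 each), a difference of -0.37, lower in 3 of 3 pairs. The exact two-sided permutation test gave p = 0.1, the smallest that 3 libraries against 3 allow, and an adjusted p of 0.5 over the 5 ratios tested. The remaining 4 ratios, which set ARNT against ARNT2, EGLN1 against EGLN2, EGLN1 against EGLN3 and HIF1A against EGLN1, gave exact permutation p from 0.3 to 0.8. HIF1A-AS2, an antisense RNA whose gene overlaps HIF1A, had 5.43, 4.60 and 4.97 CPM with control siRNA. With INO80 siRNA it had 8.41, 4.43 and 6.81 CPM, so the groups overlapped. It did not pass in either fit (adjusted p = 0.457 without the block, 0.0741 with it, edgeR). HIF1A-AS1, which overlaps the start of HIF1A, was near the floor at 9 to 15 counts, with a log2 fold change of -0.29 (adjusted p = 0.757, edgeR). RP11-618G20.1, which also overlaps HIF1A, had 0 to 2 counts. Whether the counting used strand is not given in the sources used here, so reads in the overlap cannot be assigned.

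The beta subunits gave no call in either fit. ARNT (ENSG00000143437, chr1:150782181-150849244), the general partner of the bHLH-PAS factors, had between 35.0 and 37.6 CPM in all 6 libraries, and the 95% interval of its log2 fold change ran from -0.157 to 0.143 (adjusted p = 0.977, edgeR). ARNT2 (ENSG00000172379, chr15:80696692-80890278), best known from neurons, had 60, 13 and 14 counts with control siRNA and 31, 22 and 15 with INO80 siRNA. Replicate 1 was thus highest in both groups, and control replicate 1 decided the direction: the log2 fold change was -0.68 (95% interval -2.24 to 0.869, adjusted p = 0.682) with it and 0.57 without it. Decorin (DCN), a fibroblast marker, was also highest in replicate 1 of both groups, at 674, 143 and 124 counts and at 958, 216 and 224 counts, and the summed level of the 4 fibroblast markers was 88.6 and 109 CPM in replicate 1 and 47.3 to 63.7 CPM in the others. That sum rests on DCN and COL1A1, since PDGFRA had 0 to 1 counts, and PDGFRB was lowest in replicate 1 of both groups, at 7, 16 and 17 counts and at 6, 22 and 24 counts. Besides ARNT2, the members VHL, EGLN1, EGLN2 and CITED2 were also highest in replicate 1 of both groups. The part of these markers in the values of any member was not tested.

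The prolyl hydroxylases did not pass in either fit. EGLN1 (PHD2, ENSG00000135766, chr1:231499497-231560790), the main oxygen sensor of HIF, had 127 to 147 CPM with control siRNA and 130 to 139 CPM with INO80 siRNA, and its log2 fold change had a 95% interval of -0.162 to 0.154 (adjusted p = 0.988, edgeR). EGLN2 (PHD1, ENSG00000269858, chr19:41304901-41314338) had 24.6 to 33.0 and 27.2 to 33.6 CPM, with a log2 fold change of 0.06 (adjusted p = 0.851). It shares sequence with the readthrough gene RAB4B-EGLN2, which had at most 2 counts in any library, so its counts are uncertain to the extent that shared reads were set aside. EGLN3 (PHD3, ENSG00000129521, chr14:34393437-34931980), a strongly hypoxia-inducible enzyme whose long span also holds SPTSSA, was low at 12.1 to 13.6 and 13.1 to 13.4 CPM, with a log2 fold change of 0.06 (adjusted p = 0.816). SPTSSA lies on the same strand and had 627 to 895 counts, so the level of EGLN3 is likewise uncertain to the extent that reads were shared.

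HIF1AN (ENSG00000166135, chr10:102288829-102319755), the asparaginyl hydroxylase, had 116, 114 and 106 CPM with control siRNA and 118, 124 and 125 CPM with INO80 siRNA. The groups did not overlap, but by a narrow margin, and the pairs ran from 0.02 to 0.23. Its log2 fold change was 0.13 (SE 0.0596, adjusted p = 0.351 without the block, adjusted p = 0.0315 with it, edgeR), and the blocked call held in 1 of 3 fits that each left out a pair (that without replicate 1). It was also lost with the same block in DESeq2 (adjusted p = 0.224) and in limma (adjusted p = 0.279). Its span overlaps SEC31B and NDUFB8 on the other strand. Together with HIF1A and CITED2 it made 3 of 10 members whose groups did not overlap, against 22.8% of all genes tested.

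VHL (ENSG00000134086, chr3:10182692-10193904), which recognises hydroxylated alpha subunits, had 63.7, 43.0 and 46.8 CPM with control siRNA and 65.5, 50.4 and 50.2 CPM with INO80 siRNA. Replicate 1 stood above the others in both groups, by 0.50 and 0.38 on the log2 scale. The log2 fold change was 0.11 (95% interval -0.248 to 0.477, adjusted p = 0.780 without the block, adjusted p = 0.097 with it, edgeR). The 3 pairs were all higher, at 0.04, 0.23 and 0.10, and without the pair of replicate 1 the blocked fit called VHL (adjusted p = 0.0293).

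**Figure D3:**
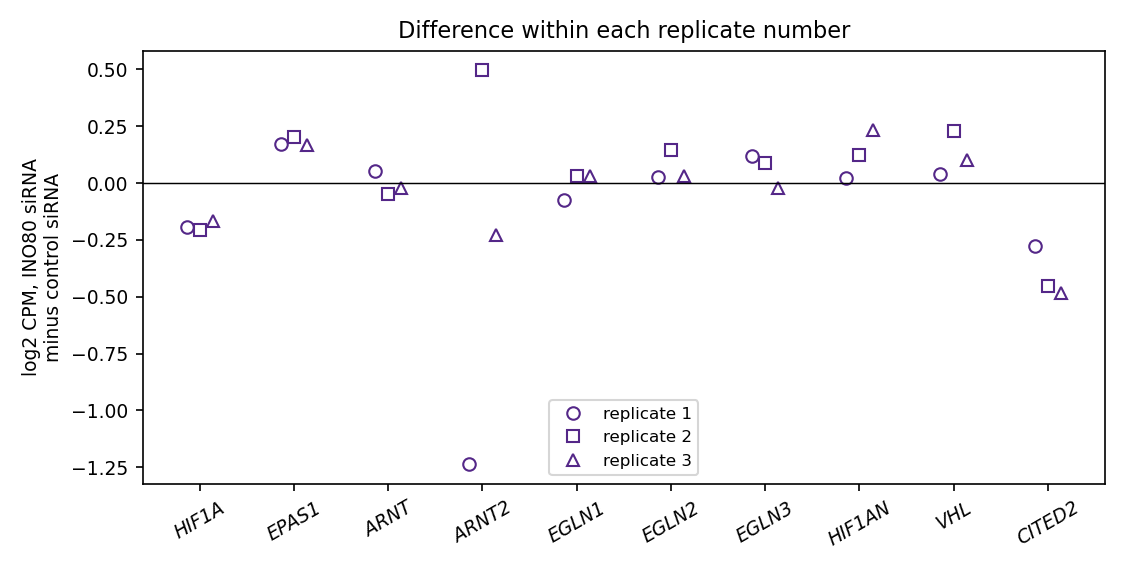
Log2 difference in CPM between the INO80 siRNA and the control siRNA library of the same replicate number, for each member, with 1 point per pair. HIF1A and CITED2 lie below 0 in 3 of 3 pairs, EPAS1, EGLN2, VHL and HIF1AN lie above 0 in 3 of 3, and the other 4 members are mixed. No share over all genes stands beside these counts, so they are a description only.

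Replicate number separated the libraries for most members. An F test of the replicate terms passed for 7 of 10 members, against 26.7% of all genes tested, and for VHL and EPAS1 the adjusted p was lowest. ARNT, EGLN3 and HIF1AN did not pass. The labels do not say what a number stands for, so it is given here as a number only.

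**Figure D4:**
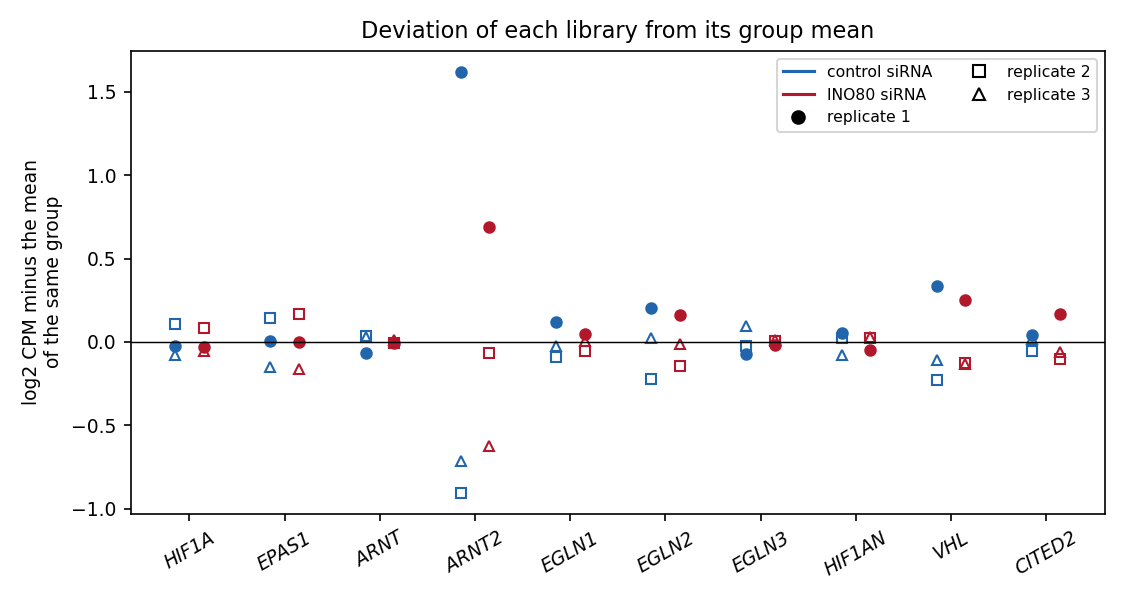
Log2 CPM of each member in each library minus the mean of its own group, by replicate number. ARNT2 and VHL stand highest in replicate 1 of both groups, as do EGLN1, EGLN2 and CITED2 by smaller margins, and EPAS1 stands highest in replicate 2 of both.

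The wider pathway was described by a list of 21 partners and regulators of HIF, of which 20 were tested and HIF3A had 0 counts in all 6 libraries. None passed without the block in edgeR or in DESeq2 (0 of 20, with 3 at an unadjusted p under 0.05 in edgeR), and the median log2 fold change was 0.01, as it was for all genes tested. With it 2 rose, TCEB2 (elongin B of the VHL ligase) by 0.18 and FKBP8 (which binds EGLN1) by 0.17, and 2 were lower, the coactivator EP300 (-0.27) and the VHL and EGLN scaffold LIMD1 (-0.33), with blocked adjusted p of 0.00831, 0.00193, 9.96e-05 and 0.000879. These counts of 2 in 20 each way stand beside 11.4% of all genes called higher and 13.4% called lower, and so are no more than the background. TCEB2 is named here after its value was seen.

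Of 30 genes commonly induced by HIF, 29 were tested and EPO, the erythropoietin gene, had 0 counts in all libraries. Without the block 2 passed in opposite directions: HK2, hexokinase 2, rose from 96.4 ± 3.58 to 122 ± 1.68 CPM (log2 fold change 0.34, SE 0.0553, adjusted p = 0.0283), and ADM, adrenomedullin, fell from 9.72 ± 0.853 to 6.05 ± 0.509 CPM (-0.69, SE 0.132, adjusted p = 0.0468; SD, n = 3 each, edgeR). With any 1 library left out, neither call held. With the block 16 of 29 were higher, beside 11.4% of all genes called higher, and 3 were lower, beside 13.4% called lower. The number called depended on the method: with the same block 13 passed in DESeq2 and 0 in limma on log2(FPKM + 0.1). The groups did not overlap for 7 of the 29, against 22.8% of all genes tested. The median log2 fold change of the list was 0.12 against 0.01 for all genes tested. Among the higher were LOX (0.42, blocked adjusted p = 5.86e-07) and DDIT4 (0.34, blocked adjusted p = 1.76e-06). The 3 lower were ADM and, named after their values were seen, CA9 (only 8 to 26 counts) and P4HA2. VEGFA, the angiogenic factor, did not pass in either fit, at 111 ± 32.2 and 105 ± 24.6 CPM (SD, n = 3 each), but varied with replicate number (adjusted p = 7.17e-11).

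**Figure D5:**
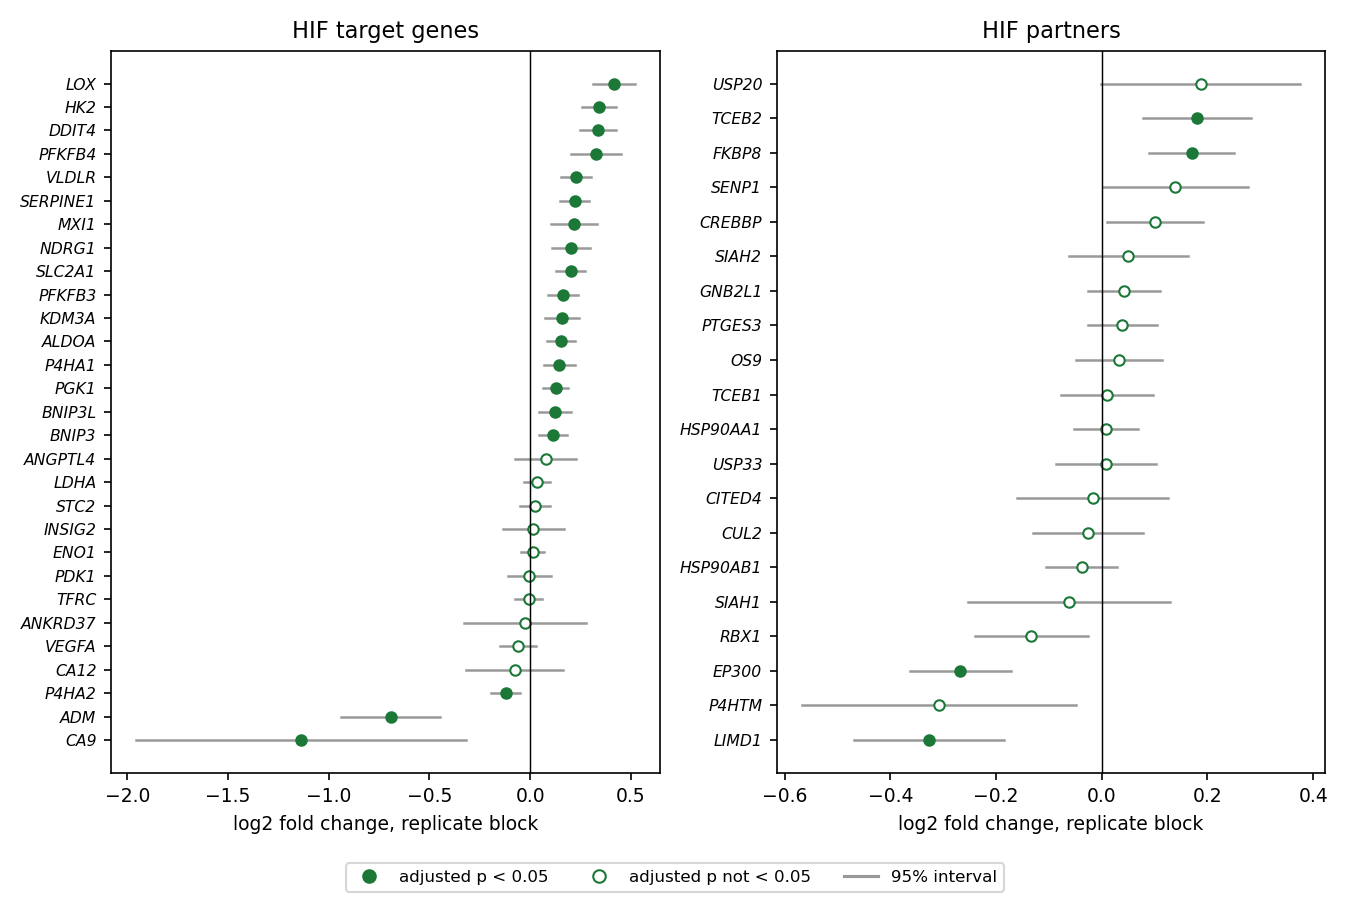
Log2 fold changes of the genes in the list of HIF partners and regulators and in the list of HIF target genes, from edgeR with the replicate number as a block, with 95% confidence intervals. Filled points passed the threshold, 16 targets above 0 and 3 below it, and 2 partners on each side.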

How the data were processed

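PolyA-selected RNA of 6 HK-2 samples was made into directional libraries (NEBNext Ultra II) and sequenced as paired reads on a HiSeq. The authors deposited 1 table for the series with raw gene counts and FPKM for each library. The submitters' processing notes name HISAT2 2.0.1, HTSeq and hg19, whereas the study's methods name ELAND and hg38, and the gene coordinates in the deposited table are those of GRCh37. The deposited FPKM equal values recomputed from the counts and exonic lengths in all 347430 cases (within 0.0051). They are per length and were used for levels between genes, whereas counts were used for tests. No column of per-library values was left unused. Nothing states that the libraries of a group came from separate cultures, so p-values measure the spread between these libraries only. In edgeR that spread is estimated for each gene with information shared over all genes tested, so a p-value does not rest on that gene's values alone.

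Counts were tested in R 4.3.3 with edgeR 4.0.16 (filterByExpr, TMM scaling, quasi-likelihood test, treatment as the only term), with Benjamini-Hochberg adjustment over 15343 genes and calls at an adjusted p under 0.05. Two-sided exact permutation tests were used for ratios. Pairing was checked from deviations from the group mean across genes. Same-number libraries correlated at 0.561, 0.342 and 0.341, all over the limit of 0.1. Across numbers, replicates 2 and 3 also passed it, at 0.138 and 0.151, so the limit alone does not separate them. The remaining correlations across numbers were negative. The blocked value stands beside each result whose call it alters. The labels carry the numbers but do not say what they stand for. Alternatives used DESeq2 1.42.0, limma 3.58.1 on log2(FPKM + 0.1) and log2(FPKM + 1), other scalings, no filter on low counts and leaving out each library or pair. Scripts were tested on simulated counts. A count of 0 allows up to 3 counts, for counting error only. Promoter windows came from RefSeq, GRCh38.p14, and no coordinate was moved between builds.

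The 10 members and the lists of partners, other bHLH-PAS genes, targets and cell type markers were chosen with earlier results of these data known. Named beyond the members are INO80, VEGFA, genes overlapping a member and, from each list, the genes called without the block (at most 5) and the 3 with the smallest p with it.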

Additional observations from a re-analysis of the deposited data

How the results depend on the processing

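With the replicate number as a block (pairing), edgeR called 4 members, 4 partners, 1 bHLH-PAS gene, 19 targets and 3798 of all genes, against 1, 0, 0, 2 and 268 without it. Under the block, total-count scaling gave 4, 4, 1, 19 and 4067, median-ratio scaling 4, 4, 1, 19 and 3831, and DESeq2 3 (HIF1AN lost), 3, 1, 13 and 1720. Limma on log2(FPKM + 0.1) with the block called 0 members, 0 targets and 0 genes in all, INO80 included (adjusted p = 0.0751). Among the members, the edgeR block changed no call other than those of HIF1A, EPAS1 and HIF1AN. Without the block, DESeq2 gave 1 bHLH-PAS gene and 592 genes, no filter on low counts gave 1 bHLH-PAS gene, 4 targets and 708 genes, and total-count scaling gave 1 target. Limma gave 0 members, 0 targets and 3 genes with a pseudocount of 0.1, and 0, 0 and 67 with 1. With a log2 limit of 1 added, 0 members were called. Leaving out 1 library at a time gave 0 to 1 members, 0 targets and 18 (without control replicate 3) to 146 genes (without INO80 replicate 1). Leaving out 1 pair at a time under the block gave 3 to 5 members, 4 to 5 partners, 1 bHLH-PAS gene, 12 to 19 targets (14 without pair 2) and 2251 to 3978 genes (2623 without pair 2). These fits have few residual degrees of freedom. The causes were not tested.

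Directions reversed for ARNT, EGLN1, ARNT2, EGLN2 and VHL. ARNT (-0.01) became 0.0039 without a filter, 0.0025 with total-count scaling (0.0023 with the block), 0.0045 with limma and 0.1, with or without the block, and 0.0038 with limma and 1. EGLN1 (-0.0042) became 0.0071, 0.0062 (0.0081), 0.0078 and 0.0074 in the same order. Leaving out 1 library gave ARNT -0.038 to 0.012, EGLN1 -0.049 to 0.057, ARNT2 -1.09 to 0.57 (positive without control replicate 1), EGLN2 -0.042 to 0.17 (negative without control replicate 2 or INO80 replicate 1) and VHL -0.021 to 0.30 (negative without INO80 replicate 1). Leaving out a pair under the block gave ARNT2 0.16 and EGLN1 0.029 without pair 1, and ARNT 0.014 without pair 2 and 0.00069 without pair 3. HIF1A, EPAS1, EGLN3, HIF1AN and CITED2 kept their direction in every fit named here, as did the ratio of HIF1A to EPAS1, from -0.43 to -0.33 with 1 library left out, whereas the ratio of ARNT to ARNT2 ran from -0.53 to 0.78. Scalings, with or without the block, set the median of all genes at 0.0038 to 0.0171. Depth limits ARNT2 most, at 13 to 60 counts.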

Other observations

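Other members of the bHLH-PAS family, to which HIF1A, EPAS1, ARNT and ARNT2 belong, were taken as a list of 12 genes, of which 8 had enough counts to test. HIF3A had 0 counts in all 6 libraries, and NPAS3, NPAS4 and SIM2 had 0 to 9. Without the replicate block 0 of 8 passed in edgeR, with 1 at an unadjusted p under 0.05, while DESeq2 called 1. With the block 1 of 8 passed, beside 13.4% of all genes called lower, so that the count is no more than the background. It was ARNTL2 (BMAL2), a partner of CLOCK in the circadian clock, which had 86.0, 76.4 and 82.3 CPM with control siRNA and 70.5, 62.1 and 65.5 CPM with INO80 siRNA, so the groups did not overlap. The means were 81.6 ± 4.83 and 66.0 ± 4.24 CPM (SD, n = 3 each), and the log2 fold change was -0.30 without the block (SE 0.0722, adjusted p = 0.0836, edgeR) and -0.31 with it (adjusted p = 1.37e-05).

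CLOCK had 76.1 ± 3.35 and 81.3 ± 2.24 CPM and did not pass in either fit (adjusted p = 0.486 without the block, 0.126 with it, edgeR). AHRR, the repressor of the dioxin receptor, had 6.41 ± 1.74 and 5.16 ± 0.959 CPM (SD, n = 3 each) and did not pass either (adjusted p = 0.542, 0.10 with the block).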
